A study of Mus musculus with 3 samples.

Results

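Gadd45a, Gadd45b and Gadd45g, the CDK inhibitors Cdkn1a and Cdkn1b, and the anti-proliferative genes Btg1 and Btg2 were followed in ChIP-Seq maps of Pol_II phosphorylated at Ser5 in mouse macrophages, 7 genes of the 22208 protein-coding genes annotated on chromosomes 1 to 19 and X. They were chosen by name with results of these libraries known, and the loss of Ser5 at a region upstream of Gadd45g after LPS was part of that choice, so their values are a description and none of them was tested. All 3 libraries came from primary bone marrow-derived macrophages of female Fvb mice (given as Fvb/Hsd in the study's methods) on the 7th day of differentiation. Of these, 1 library held Ser5 ChIP from untreated cells, 1 held Ser5 ChIP from cells given LPS (lipopolysaccharide, a bacterial cell wall product sensed by macrophages) at 10 ng/ml for 2 h, and 1 held input DNA, that is chromatin sequenced without an antibody, from untreated cells. The Ser5 antibody recognises the repeats in the carboxy-terminal domain of the largest Pol_II subunit when the serine at position 5 carries a phosphate, a form of the enzyme that is densest near the start of transcribed genes. There was no input from LPS-treated cells among the libraries analysed here, and the labels do not say how many animals or cultures gave each library. With only 1 library in each condition there is no replicate check of any difference, and all intervals are 95% intervals that cover counting error only.

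The libraries held 7616771 (untreated), 6249819 (LPS) and 7533308 (input) tags on those chromosomes, of which 81.4% to 84.5% lay at a distinct position and strand. Tags were assigned to windows by their 5′ end, and levels are given in TPM, here tags per 1000000 tags of the library, or in TPM per kb of the window. Macrophage markers carried Ser5 at their start sites, with sums over 10 genes of 672 (untreated), 627 (LPS) and 33.9 (input) TPM, and 10 of 10 exceeded input by at least 2 times in untreated cells. For 33 markers of T cells, B cells, neutrophils and their precursors, fibroblasts and stroma, and erythroid cells the sums were 21.1 (untreated), 26.4 (LPS) and 35.8 (input) TPM, and 2 of the 33 exceeded input by 2 times in untreated cells. Of the defining markers, Lum and Thy1 of stroma and Hbb-b1 of erythroid cells were at 0 tags in both Ser5 libraries. The 2 markers above input were 1 of 6 for B cells and 1 of 8 for neutrophils and their precursors. That neutrophil list summed to 9.72 (untreated), 15.7 (LPS) and 10.9 (input) TPM, so it exceeded input after LPS. Each of the other lists summed to less than input in both Ser5 libraries. All 10 LPS-induced control genes, Tnf and Il6 among them, were at least 2 times higher in the library labelled LPS, with a median ratio of 29.7. The tags in the files are 45 bases long for untreated Ser5, 30 for LPS and 36 for input, whereas the study's methods give the 45-base and 30-base lengths to the opposite Ser5 libraries, and the control genes go with the labels used here.

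The Gadd45 genes encode small acidic proteins that are induced by genotoxic and other stress and bind the kinase Map3k4, PCNA and the Cdk1 and cyclin B1 complex, and so link stress to p38 and JNK signalling and to arrest of the cell cycle. Gadd45b is a known target of NF-kB, and Gadd45a, Cdkn1a and Btg2 are known targets of p53. Cdkn1a (p21) and Cdkn1b (p27) bind and inhibit cyclin-dependent kinases, and Btg1 and Btg2 belong to the Btg and Tob family, which recruits the CCR4-NOT deadenylase to shorten mRNA tails.

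The sequences shown are those on which the description turns, namely the centre of the Ser5 peak upstream of Gadd45g, whose loss of Ser5 was part of the choice of genes, the promoters of the 3 Gadd45 genes, which changed in different directions, and the start sites of Cdkn1a that did and did not carry Ser5. They were read from the mm9 assembly (NCBIM37) on the strand of the gene, from 250 bases before to 50 after the annotated start for promoters. Capitals mark matches on either strand to the TATA box (TATAAA), the CCAAT box (CCAAT), the Sp1 site (GGGCGG), the C/EBP site (TTGCNNAA) and the p53 decamer, the 10-letter unit that occurs as a pair in a full p53 site. The AP-1 site (TGANTCA), the CRE (TGACGTCA), the PU.1 site (GAGGAA), the Fox site (TGTTTAC) and the NF-kB consensus were searched too. The regions are chr13:51938156-51938455 (Gadd45g upstream peak, plus strand), chr6:66987351-66987650 (Gadd45a, minus strand), chr10:80392586-80392885 (Gadd45b, plus strand), chr13:51941797-51942096 (Gadd45g, plus strand), chr17:29227674-29227973 (Cdkn1a-003, plus strand) and chr17:29230467-29230766 (Cdkn1a-001, plus strand).
Gadd45g upstream peak: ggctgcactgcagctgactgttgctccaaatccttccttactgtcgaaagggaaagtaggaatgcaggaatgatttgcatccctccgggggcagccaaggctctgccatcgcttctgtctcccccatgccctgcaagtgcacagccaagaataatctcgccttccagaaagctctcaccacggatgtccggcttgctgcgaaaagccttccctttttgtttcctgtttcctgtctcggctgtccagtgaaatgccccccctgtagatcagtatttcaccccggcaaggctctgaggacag
Gadd45a promoter: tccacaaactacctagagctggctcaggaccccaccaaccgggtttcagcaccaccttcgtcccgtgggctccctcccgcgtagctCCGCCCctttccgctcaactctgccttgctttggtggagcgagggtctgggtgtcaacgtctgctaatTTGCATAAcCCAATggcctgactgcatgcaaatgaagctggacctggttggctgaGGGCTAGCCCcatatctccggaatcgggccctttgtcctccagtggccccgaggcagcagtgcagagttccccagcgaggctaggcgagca
Gadd45b promoter: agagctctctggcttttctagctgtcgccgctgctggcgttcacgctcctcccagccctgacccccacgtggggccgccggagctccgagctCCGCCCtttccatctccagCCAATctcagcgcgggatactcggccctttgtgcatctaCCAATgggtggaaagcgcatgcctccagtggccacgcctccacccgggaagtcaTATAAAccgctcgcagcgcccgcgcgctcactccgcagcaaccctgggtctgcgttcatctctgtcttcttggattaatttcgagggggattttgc
Gadd45g promoter: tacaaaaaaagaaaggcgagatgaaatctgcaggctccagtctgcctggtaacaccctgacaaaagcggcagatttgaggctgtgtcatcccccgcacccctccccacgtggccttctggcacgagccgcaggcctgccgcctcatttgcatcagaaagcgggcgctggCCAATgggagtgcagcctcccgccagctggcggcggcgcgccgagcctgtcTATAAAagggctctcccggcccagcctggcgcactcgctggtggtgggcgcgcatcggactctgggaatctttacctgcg
Cdkn1a-003 promoter: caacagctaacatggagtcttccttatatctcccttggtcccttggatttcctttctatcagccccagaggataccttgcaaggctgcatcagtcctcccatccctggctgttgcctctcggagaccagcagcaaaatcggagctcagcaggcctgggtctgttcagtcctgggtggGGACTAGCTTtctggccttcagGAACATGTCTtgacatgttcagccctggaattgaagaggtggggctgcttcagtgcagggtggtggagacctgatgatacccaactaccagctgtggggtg
Cdkn1a-001 promoter: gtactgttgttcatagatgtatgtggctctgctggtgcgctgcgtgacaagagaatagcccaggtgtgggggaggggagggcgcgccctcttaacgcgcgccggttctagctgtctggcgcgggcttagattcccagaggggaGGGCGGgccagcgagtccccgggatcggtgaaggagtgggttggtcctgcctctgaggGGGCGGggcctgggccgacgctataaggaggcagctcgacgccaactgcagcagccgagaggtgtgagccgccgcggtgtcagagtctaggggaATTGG

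The promoters of Gadd45b and Gadd45g, whose Ser5 differed in opposite directions after LPS, both held TATAAA, from -46 to -41 in Gadd45b and from -30 to -25 in Gadd45g with the start as 0. Btg1 held it as well (from -26 to -21), so 3 of 7 genes had it at their main start against 13.4% of 22203 coding promoters. With transcript 001 taken for Cdkn1a, CCAAT was found in 7 of 7, against 38.0% of coding promoters. GGGCGG was found in 6 of 7 against 43.5%, Gadd45g being the gene without it. The GC content of these 7 promoters ran from 60.7% to 70.0%, against a median of 55.3% for coding promoters, and the shares were not matched for it. The CCAAT match of Cdkn1a-001 lay past the start, from 45 to 49 on the minus strand. At the start of the gene record, that of transcript 003, Cdkn1a held neither motif and would not count for either. The Gadd45a promoter held TTGCNNAA next to a CCAAT box (10.3% of coding promoters hold the former) and a p53 decamer (7.47%). In Cdkn1a the promoter of transcript 003 held 2 matches to the p53 decamer, from -73 to -64 and from -51 to -42. The bases right after the second match (tgacatgttc) miss the decamer at their first letter only and so are not marked. The promoter of transcript 001 held no p53 decamer but had GGGCGG at 2 places. CRE was found in the Btg2 promoter alone (2.32% of coding promoters), and AP-1 (6.94%), PU.1 (28.1%) and NF-kB (4.74%) had no match in these windows of the 7 genes. The 300 bases at the centre of the Gadd45g upstream peak held none of the 10 motifs, had a GC content of 54.7% against a median of 51.7% for all Ser5 peaks, and had an observed to expected CpG ratio of 0.41 against 0.262.

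In untreated macrophages 6 of the 7 genes carried Ser5 densely at their annotated start. In the TSS window, 1 kb on each side of the 5′ end of the gene record, Btg2 had 46.1 TPM per kb (42.7 to 49.6) and Btg1 42.5 (39.2 to 45.9), which did not differ beyond their intervals. Gadd45b followed at 34.4 (31.6 to 37.5). Gadd45a at 28.1, Cdkn1b at 26.2 and Gadd45g at 25.7 TPM per kb had overlapping intervals. These 6 levels were 23.7 to 32.6 times that of the input. Cdkn1a, with 2.56 untreated and 1.99 in input, was near the level of the input in this window, which lies at the start of transcript 003 and not at that of transcript 001. Over the gene body the untreated levels lay close together for 5 genes, from 18.6 TPM per kb in Gadd45b to 21.6 in Gadd45g, with Btg1 at 15.4 and Cdkn1b at 10.1.

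After 2 h of LPS the order of the genes was different. In the TSS window Gadd45b came first with 76.7 TPM per kb (71.9 to 81.7), then Btg2 with 50.4, Btg1 with 49.8 and Gadd45a with 46.0, whose intervals overlapped, then Cdkn1b with 25.3 and Gadd45g with 11.1 (9.34 to 13.1). Over the gene body the levels ran from 60.0 in Gadd45b through 38.4 in Gadd45a, 27.3 in Cdkn1a, 20.9 in Btg2, 17.9 in Btg1 and 13.0 in Cdkn1b to 7.95 in Gadd45g. Among all 22208 coding genes Gadd45b moved from rank 283 to rank 58 by gene body level and Gadd45g from rank 227 to rank 919. In bulk chromatin, more cells with Ser5 at a gene and more Ser5 per cell cannot be told apart.

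**Figure D1:**
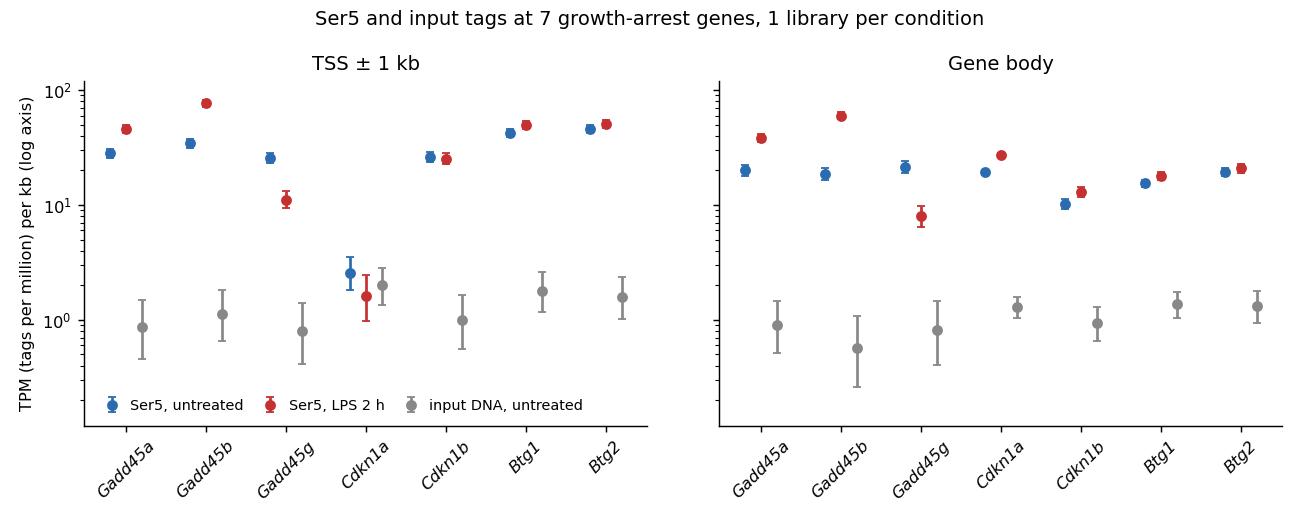
Ser5 and input levels of the 7 genes in TPM per kb (log axis) in the window 1 kb on each side of the annotated start (left) and over the gene body (right); points are single libraries and bars exact 95% Poisson intervals for counting error only. Gadd45b is the highest point after LPS in both panels (76.7 and 60.0), Gadd45g is the gene whose LPS point lies clearly below its untreated point in both, and Cdkn1a is at the input level at its annotated start but not over its body.

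Gadd45b (chr10:80392836-80394949, plus strand, 4 exons, with Lmnb2 11846 bp upstream as the nearest coding gene) had the largest gain of the 7 genes in the TSS window and the gene body. The TSS window held 525 tags untreated, 959 after LPS and 17 in input, a ratio of LPS to untreated of 2.23 (2.00 to 2.48) after scaling to TPM. The gene body held 300, 793 and 9 tags, a ratio of 3.22 (2.82 to 3.69). The gain was larger further along the gene. In the body past its first 1 kb there were 38 tags untreated, 211 after LPS and 3 in input, a ratio of 6.77 (4.77 to 9.83), and in the 3 kb past the gene end 171, 589 and 30, a ratio of 4.20 (3.53 to 5.01). Of the tags from the start to 3 kb past the end, 44.4% (40.0% to 48.9%) lay past the first 1 kb in untreated cells and 57.9% (55.3% to 60.5%) after LPS. The deposited peaks of both libraries merged into 1 region from -1503 to 3946 relative to the start, with 759 tags untreated and 1804 after LPS, a ratio of 2.90. A smaller peak from -8285 to -7454 was present in both libraries and held 65 and 43 tags, a ratio of 0.806.

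Gadd45a (chr6:66985090-66987451, minus strand, 4 exons, with Gng12 13746 bp downstream) went the same way as Gadd45b with a smaller ratio at the start. Its TSS window held 428 tags untreated, 575 after LPS and 13 in input, a ratio of 1.64 (1.44 to 1.86), and its body 361, 567 and 16, a ratio of 1.91 (1.67 to 2.19), just short of 2 times. Past the first 1 kb of the body the tags numbered 26, 79 and 10, a ratio of 3.70 (2.35 to 6.01). The 3 kb past the gene end held 28, 135 and 6 tags, a ratio of 5.88 (3.89 to 9.17), and 15.0% of the 30-base sequences of that flank occur elsewhere in the genome. The share of tags lying past the first 1 kb was 13.9% (10.8% to 17.7%) untreated, the lowest of the 7 genes, and 30.5% (27.2% to 34.0%) after LPS. A lincRNA gene on the opposite strand, E230016M11Rik, overlaps the first 858 bp of Gadd45a, and tags there cannot be assigned to either gene. Past the TSS window that lincRNA gene had 0.467 TPM per kb untreated, 0.614 after LPS and 1.05 in input, so both Ser5 levels were below that of the input.

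Gadd45g (chr13:51942047-51943837, plus strand, 4 exons, with Sema4d 52931 bp upstream) went the opposite way to its paralogs at the start, over the body and past the gene end. In the TSS window it had 392 tags untreated, 139 after LPS and 12 in input, a ratio of 0.432 (0.354 to 0.526). The body held 294, 89 and 11 tags (0.369, 0.288 to 0.469), the body past 1 kb 39, 10 and 6 (0.312, 0.139 to 0.637), and the 3 kb past the end 90, 32 and 24 (0.433, 0.280 to 0.655). The share of tags past the first 1 kb was nearly the same in both libraries, 33.6% (29.1% to 38.5%) untreated and 34.7% (26.8% to 43.5%) after LPS. After LPS the TSS window still exceeded input by 14.0 times (7.74 to 27.7).

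The peak upstream of Gadd45g, whose sequence is given above, was called in untreated cells at chr13:51937961-51938651, from -4086 to -3396 relative to the start and outside any annotated gene. It held 97 tags untreated, 10 after LPS and 3 in input. LPS over untreated gave 0.126 (0.0584 to 0.241), no peak of the LPS list overlapped it, and none of its 30-base sequences was repeated in the genome. On both sides Ser5 was near or below input, with 15 untreated, 11 LPS and 12 input tags between the peak and the TSS window and 18, 10 and 37 in the 5 kb before the peak. The whole upstream window, from 10 kb to 1 kb before the start, held 137 tags untreated and 33 after LPS, a ratio of 0.294 (0.194 to 0.432), and without the peak 40 and 23, a ratio of 0.701 (0.401 to 1.20). Since this loss was part of the choice of the genes, its place among all peaks is given for scale only. Of 22532 merged Ser5 peaks with at least 50 tags over both libraries, 358 (1.59%) had a ratio as low or lower, and of the 3298 of them over 1 kb from coding genes, 101 (3.06%) did.

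Of the deposited peaks around Gadd45g, merged over both lists, the other 5 beside the chosen one had ratios from 0.116 to 0.454. The lowest of these ratios belonged to a small peak from 6611 to 6933 bp past the start, with 21 tags untreated and 2 after LPS. That peak and the one from 1201 to 2036 (44 and 15 tags) were called in untreated cells only, and so were chosen through the library in which they were high. The borders of all 5 are those of the untreated calls. The LPS calls within them gave 0.440 (from -1056 to -802, 36 and 13 tags) and 0.431 (from -256 to 317, 300 and 106 tags). The LPS call from 2987 to 3220 held 6 tags untreated and 9 after LPS. Its ratio was 1.83 (0.581 to 6.24), so it had no clear direction. A peak from 2450 to 3825 past the start of Gadd45a, beyond the gene end, held 27 tags untreated and 110 after LPS, a ratio of 4.97. Its borders are those of the call after LPS, the library in which it was high. The shorter untreated call within it, from 2479 to 3025, held 20 and 52 tags, a ratio of 3.17. Genome-wide, a gain of 2 times or more after LPS was seen in 28.9% of 65623 merged peaks and a loss of that size in 28.9%. Of the 11591 over 1 kb from coding genes, as the one from 6611 to 6933 is, 23.3% gained and 39.0% lost that much. All these shares are subject to the same selection.

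**Figure D2:**
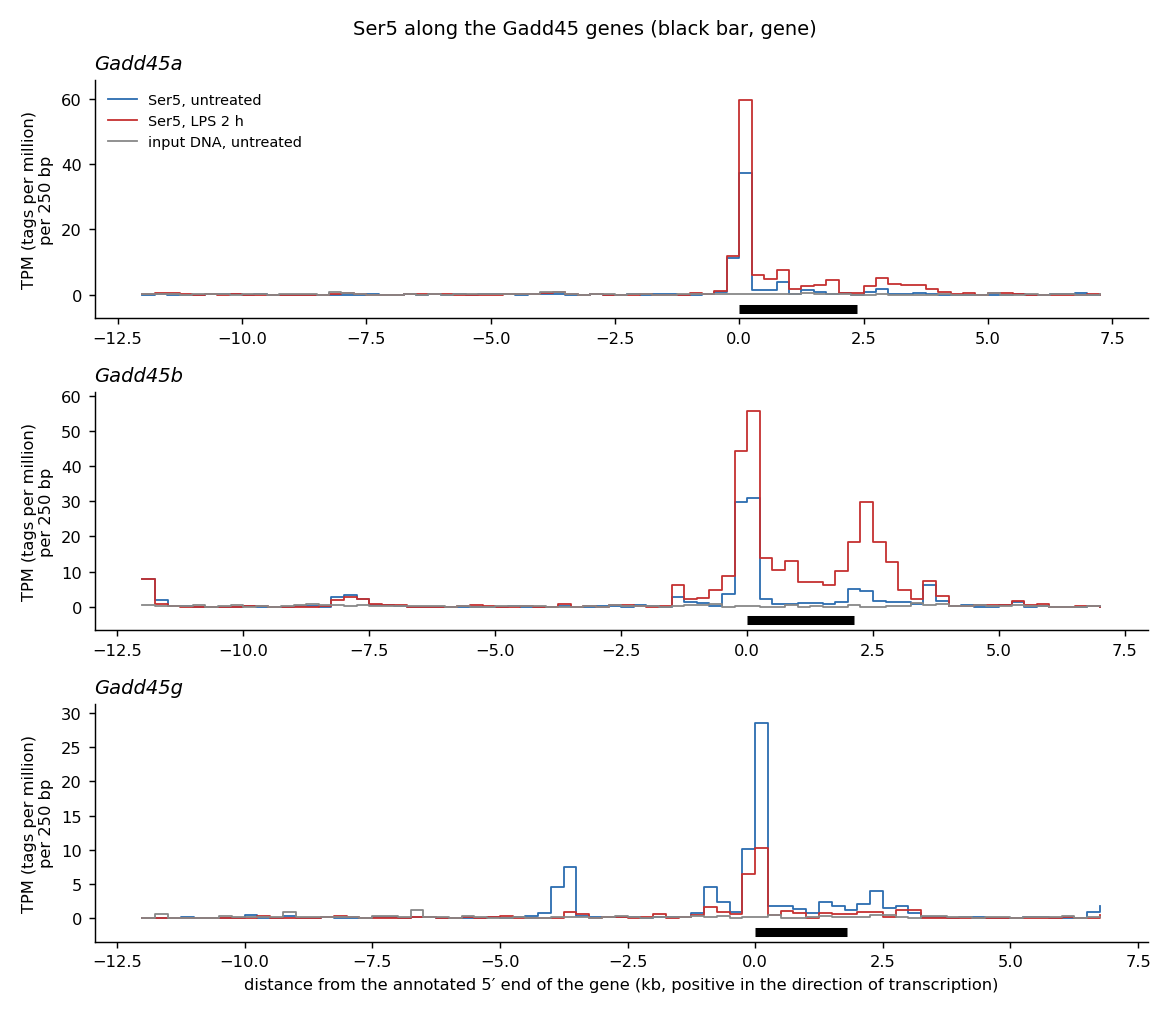
Tags in TPM in bins of 250 bp along Gadd45a, Gadd45b and Gadd45g against distance from the annotated start in kb, with 1 line per library and a black bar for the gene; each panel has its own vertical scale. After LPS Ser5 is higher over and past the ends of Gadd45a and Gadd45b, and in Gadd45g it is lower at the start and at the peak centred at -3741 bp, which holds 97 tags untreated and 10 after LPS.

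Genes were called by size alone, with a difference of 2 times or more and a sum of 10 or more Ser5 tags, and by this rule 1 of the 7 genes was higher in the TSS window (Gadd45b) and 1 lower (Gadd45g), where 5.6% of 12458 coding genes were higher and 14.1% lower. The same genes passed over the gene body, against a background of 5.83% higher and 11.2% lower. In the body past 1 kb Gadd45a and Gadd45b were higher and Gadd45g lower (6.63% and 12.2% of coding genes), and so they were in the 3 kb past the gene end (8.2% and 24.0%). In the upstream window Cdkn1a was higher and Gadd45g lower (9.87% and 16.1%), but the Gadd45g window includes the peak whose loss was part of the choice, without which its ratio was 0.701, and nothing is read from that call. The median ratio over the 7 genes was 1.09 in the TSS window and 1.28 over the gene body, and over all coding genes with enough tags it was 0.831 and 0.874. The median of all coding genes lay below 1, and scaling to it multiplied every ratio in the report by the same factor, which left no gene of the 7 at least 2 times lower in the TSS window, Gadd45g being at 0.520. With 1 tag kept per position and strand Gadd45g was at 0.531, also short of 2 times, and in a window of 500 bp on each side of the start Gadd45b was at 1.85.

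**Figure D3:**
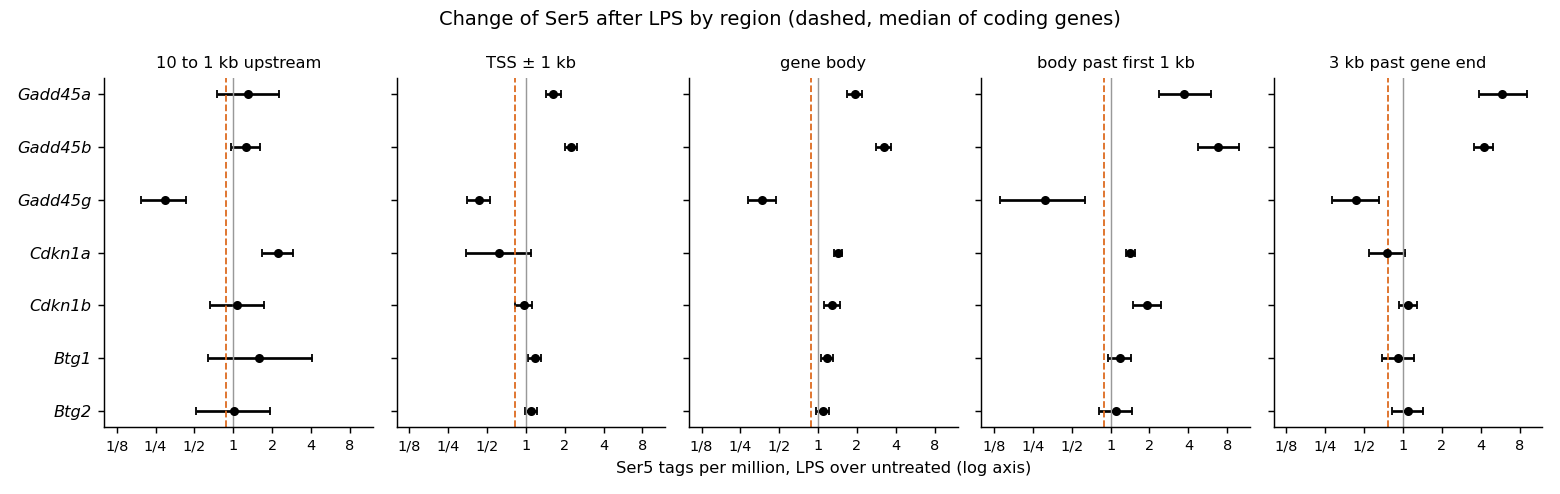
Ratio of Ser5 TPM after LPS to untreated (log axis) for the 7 genes in 5 windows; points are ratios of single libraries, bars exact 95% intervals for counting error, the grey line marks a ratio of 1 and the dashed line the median of coding genes. Gadd45a and Gadd45b lie furthest right past the first 1 kb and past the gene end (3.70 to 6.77), and Gadd45g lies left of both lines in every panel. Its upstream window includes the peak whose loss was part of the choice of genes, so nothing is read from that panel for Gadd45g. Without that peak its upstream ratio was 0.701 (0.401 to 1.20), an interval that includes 1.

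Cdkn1a (chr17:29227924-29237667, plus strand, with Rab44 34334 bp downstream) carried most of its Ser5 at an internal start. The annotation gives 3 coding starts, and 1 kb on each side of that of transcript 003, the outermost, there were 39 tags untreated, 20 after LPS and 30 in input. At the start of transcript 001, 2793 bp further on, there were 784, 942 and 22 tags, 35.2 times the input untreated (23.1 to 56.6) and a ratio of LPS to untreated of 1.46 (1.33 to 1.61). At that of transcript 002, 7228 bp from the gene start, there were 131, 158 and 15 tags, with a ratio of 1.47 (1.16 to 1.87). The 2 p53 decamers marked above thus stood at the start with input-level Ser5. Over the body the tags numbered 1431, 1661 and 94, a ratio of 1.41 (1.32 to 1.52), and this body level stood at rank 268 untreated and rank 169 after LPS among coding genes. Its upstream window held 87 tags untreated, 157 after LPS and 55 in input, a ratio of 2.20 (1.68 to 2.89), against 4.32 once the input density was subtracted. A window from 5 kb to 1 kb before the start gave 0.609, with a wide interval (0.134 to 2.27) and so no clear direction. The tags of the full upstream window lay mostly in a merged peak from -10272 to -8540, partly outside that window, with 100 tags untreated and 187 after LPS (ratio 2.28). The neighbouring merged peak from -12820 to -11511 had 171 and 160 (ratio 1.14). The 3 kb past the gene end gave 103, 64 and 2 tags, and 80.9% of the 30-base sequences there are repeated in the genome, so uniquely aligned tags cover little of that flank.

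Cdkn1b (chr6:134870419-134875531, plus strand, 2 exons, with Gpr19 22476 bp upstream) differed little at its start, with 399 tags untreated, 316 after LPS and 15 in input, a ratio of 0.965 (0.830 to 1.12), which scaling to the median of coding genes turned to 1.16. Past the first 1 kb of the body it had 106, 166 and 26 tags, a ratio of 1.91 (1.49 to 2.46), just short of 2 times, and this interval did not overlap that of the start. A cluster of Ser5 from 6169 to 9027 bp past the start, beyond the gene end and outside annotated genes, held 560 tags untreated, 453 after LPS and 31 in input (ratio 0.986). That was more than the 453 and 409 tags of the merged peak at the start of Cdkn1b itself. Part of it falls in the 3 kb past the gene end, where 367 tags untreated and 329 after LPS were counted.

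Btg1 (chr10:96079635-96085447, plus strand, 2 exons) and Btg2 (chr1:135971747-135975697, minus strand, 2 exons) had high and nearly equal Ser5 in both conditions. The TSS window of Btg1 held 647 tags untreated, 623 after LPS and 27 in input, a ratio of 1.17 (1.05 to 1.31), and its body 683, 652 and 60, a ratio of 1.16 (1.04 to 1.30). In Btg2 the TSS window held 702, 630 and 24 tags, a ratio of 1.09 (0.981 to 1.22), and the body 581, 517 and 39, a ratio of 1.08 (0.961 to 1.22). By density at the start Btg2 ranked at 168 untreated and 176 after LPS and Btg1 at 207 and 182. The share of tags past the first 1 kb was 39.4% and 37.7% in Btg1 and 31.2% and 31.3% in Btg2, with overlapping intervals. In the upstream window both genes were below input, as was Gadd45a (28 tags untreated, 30 after LPS and 60 in input). Of the 30-base sequences of the Btg1 body 17.6% are repeated, and of those of the Btg2 body 0.0255%.

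**Figure D4:**
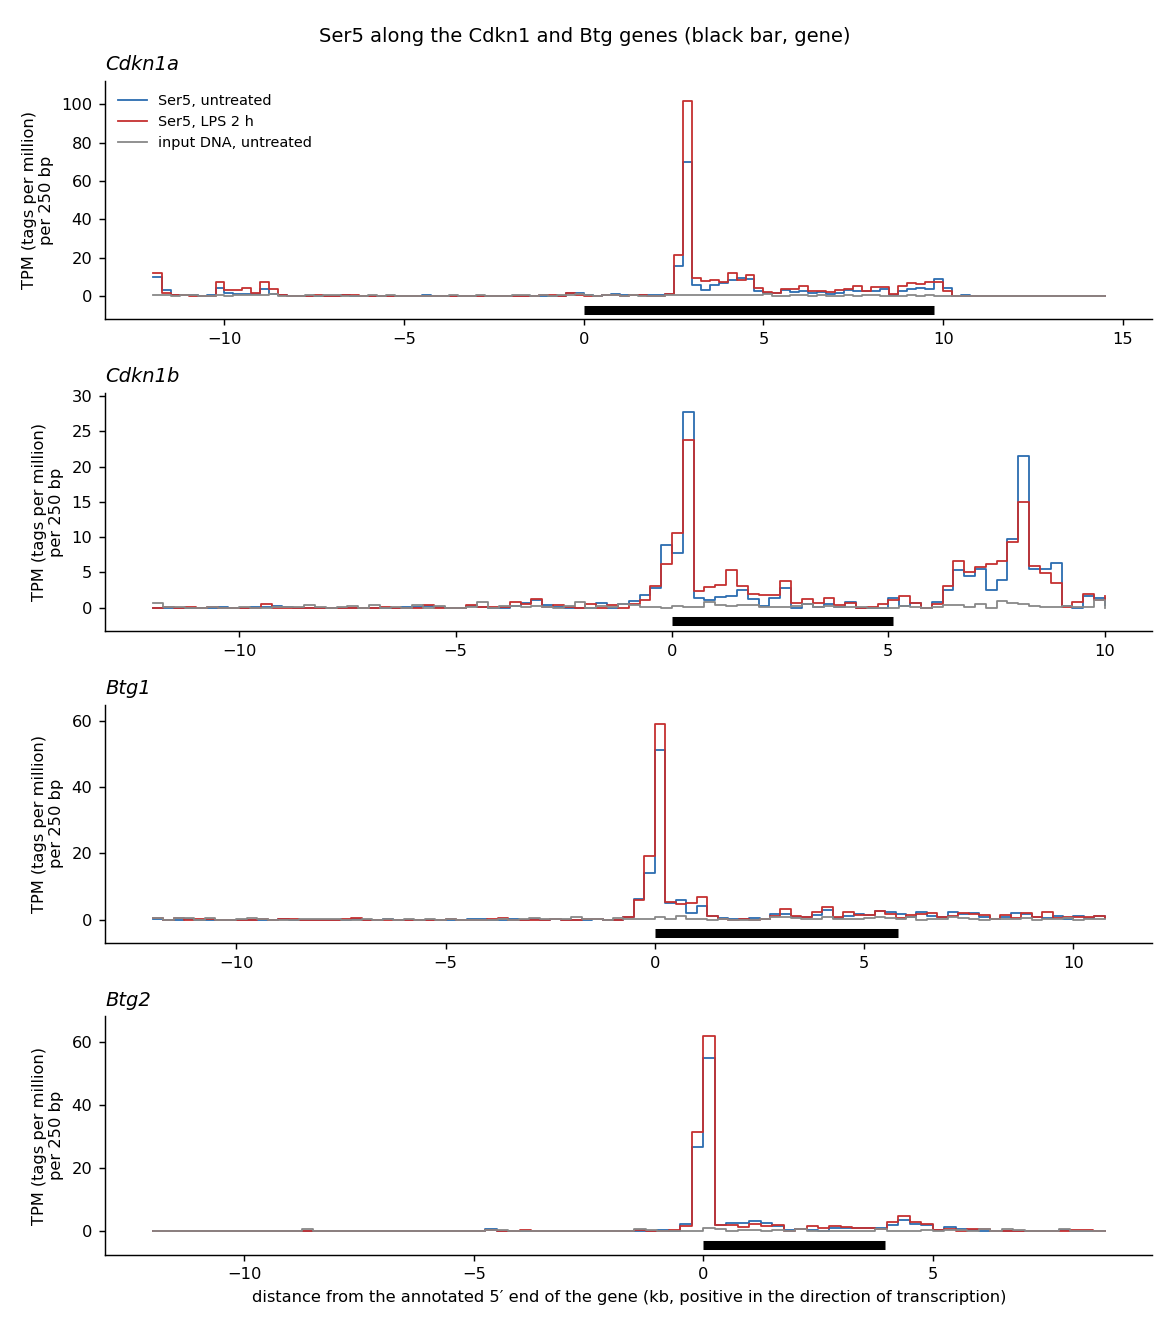
Tags in TPM in bins of 250 bp along Cdkn1a, Cdkn1b, Btg1 and Btg2 against distance from the annotated start in kb, drawn as for the Gadd45 genes with a vertical scale for each panel. The main Ser5 peak of Cdkn1a stands 2793 bp past the annotated start, Cdkn1b has a Ser5 cluster beyond its end, and the lines of both Ser5 libraries nearly coincide in Btg1 and Btg2.

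The peak lists, in which the authors called each Ser5 library against input, placed a peak in the TSS window of 6 of the 7 genes in both libraries (48.1% of coding genes untreated and 46.0% after LPS), Cdkn1a being the gene without. A peak overlapped the body of 7 of 7 (53.4% and 50.7%). In the upstream window 4 of 7 had one in each library, namely Gadd45b, Gadd45g, Cdkn1a and Cdkn1b (24.3% and 20.5%). For Gadd45g after LPS this was a peak from -1056 to -802 that crosses the inner border of the window.

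Of 65 other genes of the same pathways, 60 had enough tags in the TSS window. Of these 60, 3 were at least 2 times higher and 7 lower, with a median ratio of 0.798. These were 5.0% and 11.7% of them, against 5.6% and 14.1% of all coding genes. Over the gene body 6 were higher and 6 lower of 63 (9.52% each, against 5.83% and 11.2% of all coding genes), with a median of 0.842. The Gadd45 list of 15 genes held the partners named above together with other kinases and cyclins. In the TSS window 5 of the 15 were lower and none higher, with a median of 0.606, where 14.1% of all coding genes were lower. Ccnd1, Ccne1, Cdk4 and Map2k6, whose values follow, are not among those partners. Over the gene body 2 of the 15 were lower and none higher (median 0.669), near the background of 11.2%. Ccnd1, the cyclin D1 gene, had 287 tags untreated and 24 after LPS in the TSS window, a ratio of 0.102 (0.0642 to 0.155), and Ccne1, the cyclin E1 gene, 224 and 65 (0.354). Cdk4, the kinase that cyclin D1 binds, had 338 and 98 over its body (0.353), and Map2k6, an activator of p38, 19 and 4 at its start (0.257), where the input had 23.

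Of the 9 stress-inducible ATF4 and CHOP genes, 2 were higher and none lower in the TSS window (5.6% and 14.1% of all coding genes), with a median of 1.03. Both were also higher over the gene body, Atf3, a stress-induced transcription factor, with 943 tags untreated and 2572 after LPS (3.32, 3.08 to 3.59), and Ppp1r15a, also called Gadd34, with 227 and 526 (2.82, 2.41 to 3.31). Among 18 p53 target genes with enough tags in the TSS window, 1 was higher and 1 lower, against the same 5.6% and 14.1%, with a median of 0.813. Fas, a death receptor, had 153 and 505 tags over its body (4.02, with 202 in input). Sesn1, a stress-induced inhibitor of mTORC1 signalling, had 791 and 217 over its body (0.334, with 513 in input). Phlda3, an inhibitor of Akt, had 42 and 7 at its start (0.203, with 16 in input). After LPS its level there (1.12 TPM) was below that of the input (2.12 TPM). Of 11 upstream regulators none was higher and 1 lower in the TSS window (median 1.07), where 5.6% and 14.1% of coding genes were. Over the body 2 of 13 were higher and 2 lower, where 5.83% and 11.2% of coding genes were. Nfkb1, the NF-kB subunit p105, had 1510 and 6949 tags over its body (5.61, 5.30 to 5.93), and Junb, an AP-1 subunit, 841 and 1439 (2.09). Foxo3, a forkhead transcription factor, had 1204 and 393 (0.398, with 624 in input), and Smad3, a mediator of TGF-beta signalling, 590 and 239 (0.494, with 663 in input). Junb, Foxo3 and Smad3 lay outside the 10 largest changes and were named after their values were seen. In the Btg and Tob family and among the CDK inhibitors, lists that include Btg1, Btg2, Cdkn1a and Cdkn1b, no gene passed the rule in the TSS window or the body, with TSS window medians of 0.968 over 5 genes and 0.801 over 6.

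The coding gene most like each of the 7 was found by the distance over 4 values, the log2 level in the TSS window and the gene body in both Ser5 libraries. Prdx5 was nearest to Gadd45b (distance 0.204), with TSS window levels of 36.7 untreated and 75.3 after LPS beside 34.4 and 76.7. Nearest to Gadd45a was Ly6e (0.386) and nearest to Gadd45g was A330017A19Rik (0.426). Cyba was nearest to both Btg1 (0.258) and Btg2 (0.269), and Serf2 was nearest to Cdkn1b (0.258). The nearest gene to Cdkn1a, Nupr1, stood further off (1.06). These 4 values come from the same 2 libraries and share their depth.

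**Figure D5:**
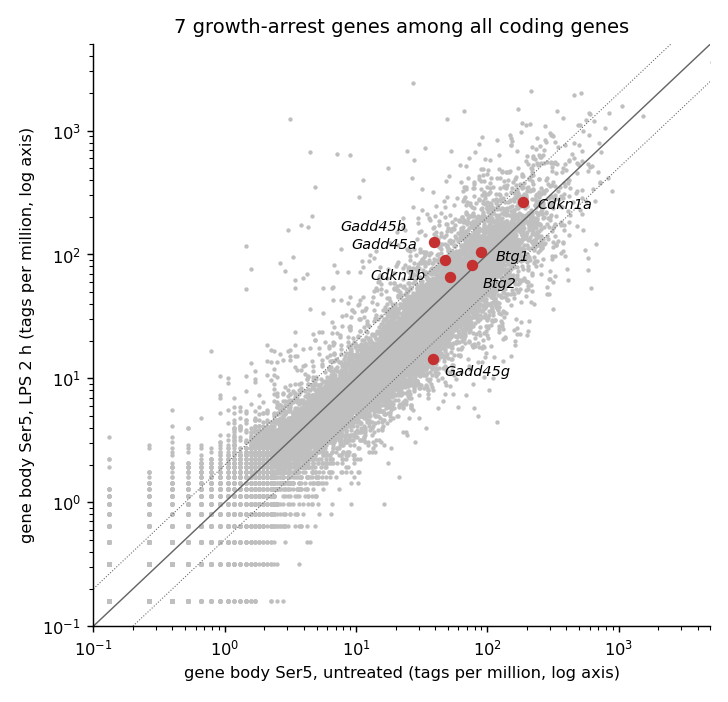
Gene body Ser5 of all coding genes with tags in both libraries, in TPM (log axes), untreated against LPS; the solid line marks equality, the dotted lines a difference of 2 times, and the 7 genes are in red. Gadd45b lies above the upper dotted line (ratio 3.22), Gadd45g below the lower one (0.369), and the other 5 between them.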

How the data were processed

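Aligned tags and peaks of 3 libraries, Ser5 ChIP and input, were analysed and assigned to their conditions by the sample labels. As the study's methods state, the authors used Bowtie to align reads to mm9, allowed 2 mismatches and a single match in the genome, and called peaks with MACS in each Ser5 library against input at a p-value threshold of 1e-05. Versions are not given in the sources used here. The deposited tag files list aligned tags, duplicates included, and hold only positions and strand, so every tag count was made here from them. In the deposited peak lists the score is minus 10 times log10 of the MACS p, and it was used here only to select peaks.

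Tags on chromosomes 1 to 19 and X were counted by their 5′ end in the TSS window (1 kb on each side), the gene body, the window from 10 kb to 1 kb upstream, the body past 1 kb and the 3 kb past the gene end, and scaled to TPM. Genes came from GENCODE M1 on the same assembly. Tag intervals are exact Poisson, ratio intervals exact conditional on the sum and share intervals Wilson. Peaks of both lists were merged where they overlapped. A count of 0 entered the size rule as 0.5. For likeness, 0.1 was added before log2, among genes with at least 50 Ser5 tags. Of the other genes the 10 with the largest changes past the rule of size were named. Tigar and Trac were not found in the annotation. The genes, lists and rules were chosen with earlier results of these data known. The functions were tested on simulated data. Alternatives were other scalings, a shift of the tags by 75 bp, 1 tag per position and strand, subtraction of input, other windows and peaks with p of at most 1e-10. Python 3.11.15, numpy 2.4.6, pandas 2.3.3, scipy 1.17.1 and matplotlib 3.10.9 were used.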

Additional observations from a re-analysis of the deposited data

How the results depend on the processing

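Of the values recomputed under the alternatives, 29 moved beyond their counting interval or changed a count by a larger step, 1 reversed and 143 did neither. Smaller steps in counts of genes with a peak are among the 143. With the peak midpoint required inside the window, the count after LPS went from 6 to 5 at the TSS and from 4 to 3 upstream. At a p of at most 1e-10 the untreated upstream count went from 4 to 3. The cause was not tested except where the construction of the alternative shows it. Scaling to the median TSS window ratio of coding genes, which shifts all log2 ratios by 0.27 (outside-peak scaling shifts them by 0.11), gave TSS window ratios of 1.97 (Gadd45a), 2.68 (Gadd45b), 1.16 (Cdkn1b), 1.41 (Btg1) and 1.32 (Btg2), body ratios of 2.30 (Gadd45a), 3.88 (Gadd45b), 1.70 (Cdkn1a), 1.54 (Cdkn1b), 1.40 (Btg1) and 1.31 (Btg2), 0 genes lower in the TSS window and 2 higher over the body. Scaling to tags outside peaks gave 1.52 for the Cdkn1a body and 2 genes higher over the body. With 1 tag per position and strand the TSS window ratio was 2.55 for Gadd45b and 0.531 for Gadd45g, so 0 genes were lower there, and the Gadd45b body was at 4.11. Moving tags 75 bp downstream gave 3.97 for that body. Subtracting the input gave 4.32 for the upstream window of Cdkn1a and 2 genes lower in the TSS window. Beside Gadd45g this count took in Cdkn1a, whose level there after LPS (3.20 TPM) was below that of the input (3.98). No ratio could be formed for it, so nothing is read from that call. A TSS window of 500 bp on each side gave 1.85 for Gadd45b. Without the first 1 kb the body ratios were 3.70 (Gadd45a), 6.77 (Gadd45b) and 1.91 (Cdkn1b). An upstream window from 5 kb gave 1.87 for Gadd45b and 0.609 (0.134 to 2.27) for Cdkn1a, whose upstream peak lies outside it. The Cdkn1a value was counted as reversed, but its interval includes 1, so it has no clear direction. At a p of at most 1e-10, 2 genes had an upstream peak after LPS. The start of Cdkn1a-001, added after the data were seen, gave 1.46. The ratio at the Gadd45g upstream peak ran from 0.0791 to 0.151 over 6 settings. No paired analysis was possible because each condition had 1 library. Depth limits the windows with few tags, such as the 10 LPS tags at the Gadd45g upstream peak.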
